A study of Mus musculus with 22 samples.

Results

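RNA from the livers of mice that had inhaled benzene was compared with RNA from the livers of mice that had breathed filtered air. All libraries of the liver table were taken, which gave 10 of the 22 libraries of the series, 5 from benzene livers and 5 from air livers. The benzene group held male mice of C57BL/6J background, 14 weeks old and on normal chow, that were exposed to 50 ppm benzene for 6 hours a day, 5 days a week, over 6 weeks. The air group shared the strain background, sex, age and chow and received air cleaned by carbon and HEPA filters. Total RNA was extracted with Trizol, and polyadenylated RNA was sequenced as read pairs. The samples are numbered 1 to 5 within each group, but nothing states that each number is a separate animal, so the p-values below measure the spread between these samples, which may be technical. The question was which liver transcripts differed after weeks of benzene inhalation.

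Benzene is a volatile solvent that does its best known harm in the blood-forming marrow after the liver has oxidised it. In hepatocytes CYP2E1 converts it to benzene oxide, from which phenol, hydroquinone and catechol arise. Epoxide hydrolase, quinone reductase, glutathione transferases, sulfotransferases and glucuronosyltransferases then turn these products into forms that leave in bile and urine. The same organ sets blood glucose, disposes of amino acid nitrogen, exports lipoproteins, and in males makes urinary pheromone proteins under pulsatile growth hormone. Its sinusoids hold the Kupffer cells, the resident macrophages of the liver.

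Levels are normalized CPM (counts scaled by 1 factor per library) and are given per library in the order of replicates 1 to 5 or as mean ± SD (n = 5 per group). Changes are benzene minus air on log2(CPM + 1) ± SE, a scale on which the change of a gene with few reads is understated. A gene was called when the Benjamini-Hochberg adjusted p of limma-trend over the 11968 genes tested was under 0.05. The libraries held 9.71 to 12.71 M reads (M for mega) in benzene livers and 9.46 to 12.42 M in air livers. The tissue label fitted its markers, since Alb, the gene of serum albumin, alone took 5.22% to 6.62% of the reads of benzene livers and 7.06% to 7.72% of those of air livers. Benzene replicate 4 and air replicate 1 stood apart from their own groups. Their median absolute distance from the group median was 0.201 and 0.154 on the log2 scale, against 0.0573 to 0.12 in the other benzene livers and 0.0667 to 0.0858 in the other air livers. With both left out, 751 genes were called, 374 higher and 377 lower, and 185 of them were among the 186 called with all 10 libraries.

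**Figure D1:**
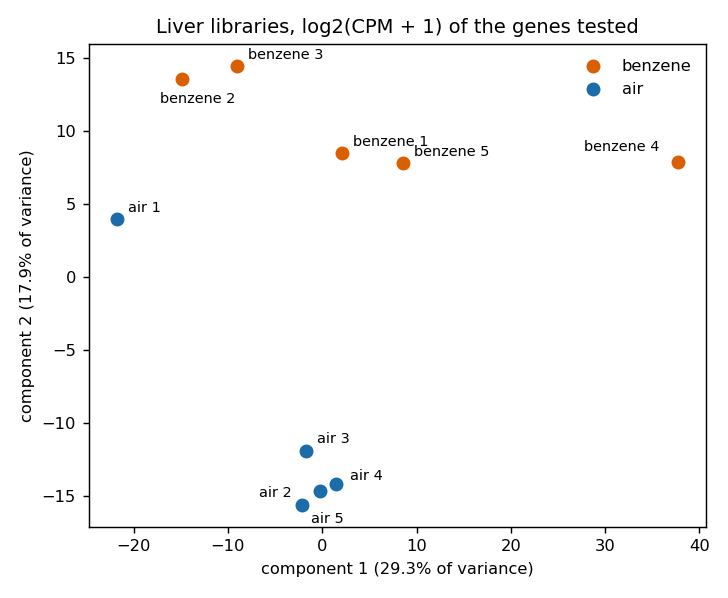
Principal components of the 10 liver libraries, from log2(CPM + 1) of the 11968 genes tested. The horizontal axis is component 1 (29.3% of the variance) and the vertical axis component 2 (17.9%). Benzene replicate 4 lies at 37.8 and air replicate 1 at -21.8 on component 1, while on component 2 the benzene livers lie at 7.80 to 14.5 and the air livers at -15.6 to 3.97.

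Benzene livers differed from air livers in 186 genes, 1.55% of those tested, of which 98 were higher (0.819%) and 88 lower (0.735%). Every count of called list members below is to be set beside these shares. Most changes were small. The median change was 0.53 among the called genes that were higher and -0.52 among those that were lower, and 26 of the 186 changed by at least 1 on the log2 scale. Over all genes tested the median change was 0.0016. Of the 186 genes, 170 had benzene and air libraries that did not overlap, where 509 of all genes tested (4.25%) had such a separation, 2.07% with benzene above air and 2.18% with benzene below. At an unadjusted p under 0.05 stood 1567 genes (13.1%), 739 higher and 828 lower, and 50.4% of all genes tested had a change above 0. Counts of list members at that unadjusted p are to be set beside these 739 and 828 of 11968 genes. Calls were more frequent among genes of high level: the 3990 genes with the highest levels held 124 of the calls, the 3989 genes in the middle 39 and the 3989 with the lowest levels 23, and the median SE in these sets was 0.0926, 0.131 and 0.202. When CPM were rebuilt on the total reads of each library, which moved the median change of all genes to 0.03, there were 190 calls, 124 higher and 66 lower.

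**Figure D2:**
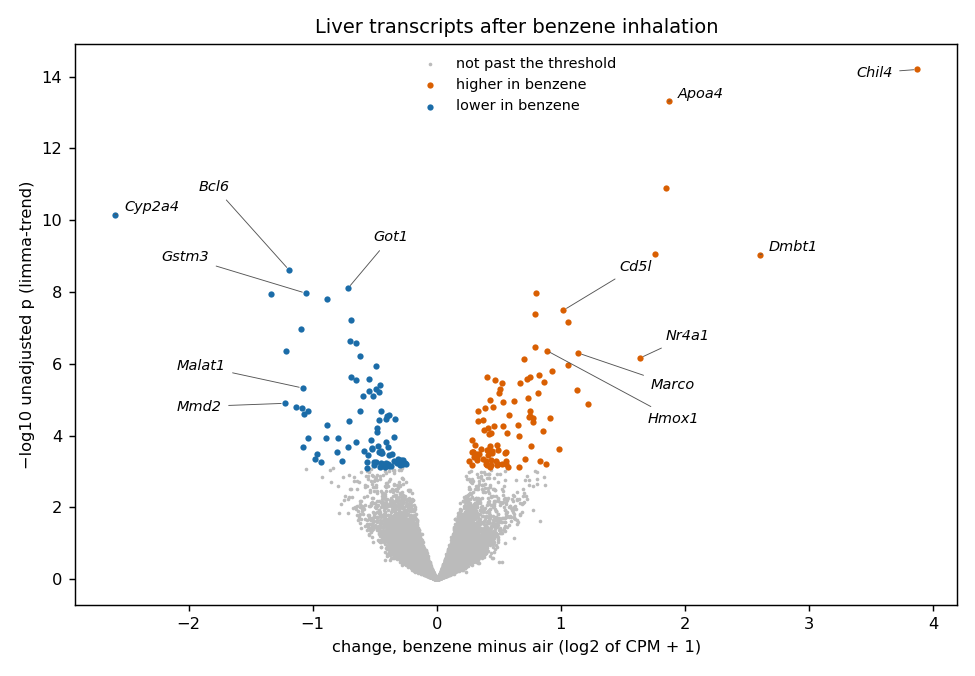
Change of each of the 11968 genes tested in liver, benzene minus air on log2(CPM + 1), against the unadjusted p of limma-trend as −log10. Orange points are the 98 genes called higher, blue points the 88 called lower, and grey points the rest; Chil4 lies farthest right at 3.87 and Cyp2a4 farthest left at -2.59.

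The largest rise was that of Chil4, which encodes a secreted chitinase-like protein of the mouse (ENSMUSG00000063779, GRCm38 chromosome 3, 106201490 to 106219507). It had 13.9, 13.9, 11.2, 15.9 and 13.7 CPM in benzene livers, against 0, 0, 0, 0 and 0 CPM in air livers. The air livers held no read of it in 54.1 M reads. Set against 3 reads in the 5 air libraries together, taken as an upper limit for a count of 0, the mean of the benzene livers was 242.7-fold higher. This limit allows for counting error in the air livers alone, and the spread of the benzene livers does not enter it. Chil4 was called by limma-trend (adjusted p = 7.55e-11). Dmbt1, a scavenger receptor protein of mucosal surfaces, had 9.62, 6.2, 5.77, 7.87 and 3.82 CPM in benzene livers, against 0.351, 0, 0.206, 0.489 and 0.0919 CPM in air livers. It rose by 2.61 ± 0.22 (adjusted p = 1.79e-06), and each benzene liver lay above each air liver. Both genes were called in each of the 20 alternatives that tested them; the filter of 1 CPM in all 10 libraries left them out. None of the 150-base windows of the Chil4 transcript, the length of 1 read, occurs in another annotated gene. Of 18 chitinase and alternative activation genes, 6 could be tested. Chil4 and Dmbt1 were the 2 that rose, and 0 fell. Both passed the filter only through the benzene livers, and with 1 CPM asked in all 10 libraries 0 members were called. DESeq2 called 3 higher and 1 lower. The summed level of the list was 1118 to 1325 CPM in benzene livers against 1379 to 1512 CPM in air livers, without overlap. The promoter of Chil4 is shown because the gene changed from no read to a steady level in every benzene liver. It is chr3:106219450-106219729 on the minus strand of GRCm38.p6, from RefSeq, 250 bases before the start of the gene and 30 from it on; capitals mark a match to the STAT-type motif TTCNNNGAA.
Chil4: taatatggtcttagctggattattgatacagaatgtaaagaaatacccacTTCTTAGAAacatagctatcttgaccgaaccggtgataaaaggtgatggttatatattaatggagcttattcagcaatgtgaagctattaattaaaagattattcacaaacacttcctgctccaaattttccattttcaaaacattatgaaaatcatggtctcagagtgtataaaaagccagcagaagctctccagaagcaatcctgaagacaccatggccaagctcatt
The motif reads the same on both strands, and 8.30% of 32851 RefSeq mouse promoters of 300 bases hold it. Among the promoters of called genes it stood in 6 of 82 for the genes that were higher and in 7 of 84 for those that were lower.

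Apoa4, an apolipoprotein of triglyceride-rich particles, came next. It had 383, 345, 414, 447 and 418 CPM in benzene livers, against 93.2, 111, 105, 119 and 117 CPM in air livers. The change was 1.87 ± 0.08 (adjusted p = 2.89e-10), 3.68-fold by mean CPM, and the groups were far apart. Its neighbours Apoa1 and Apoc3 in the same apolipoprotein cluster were not called with all 10 libraries. Apoa1, the main protein of high-density lipoprotein, averaged 10907 ± 1743 CPM in benzene livers and 10979 ± 1354 CPM in air livers (adjusted p = 0.978), and Apoc3, an inhibitor of lipoprotein lipase, averaged 2361 ± 658 CPM in benzene livers and 2379.8 ± 377 CPM in air livers (adjusted p = 0.957). With all 10 libraries both changes were near 0, and they took the other sign under some alternatives, with 6 for Apoa1 and 2 for Apoc3. Air replicate 1 had 8582 CPM of Apoa1, where the other air livers had 11280 to 11790. It had 1707 CPM of Apoc3, where they had 2526 to 2573. Without it and benzene replicate 4, Apoc3 was called lower by limma-trend (adjusted p = 0.0209). The antisense gene Gm10680 rose by 1.85 ± 0.12 and the unclassified transcript AC116503.1 by 1.76 ± 0.15, and 67.6% and 17.6% of their 150-base windows are antisense to Apoa4. Of the windows of Apoa4, 22.45% are antisense to Gm10680. Since no strand setting is stated for the counting, reads in the parts where these genes overlap cannot be assigned to 1 of them. Pltp, the phospholipid transfer protein, also rose (78.4 ± 3.65 CPM in benzene livers against 54.9 ± 4.39 CPM in air livers), as did Creb3l3, a liver transcription factor that drives Apoa4 (285 ± 10.8 CPM in benzene livers against 234 ± 9.48 CPM in air livers, adjusted p = 0.0276). Creb3l3 missed the threshold under 8 of 21 (adjusted p up to 0.101, without air replicate 2). Of 36 apolipoprotein and lipoprotein genes tested, 4 rose and 0 fell, with a median change of 0.02. Without both libraries that stood apart, 5 rose and 3 fell.

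**Figure D3:**
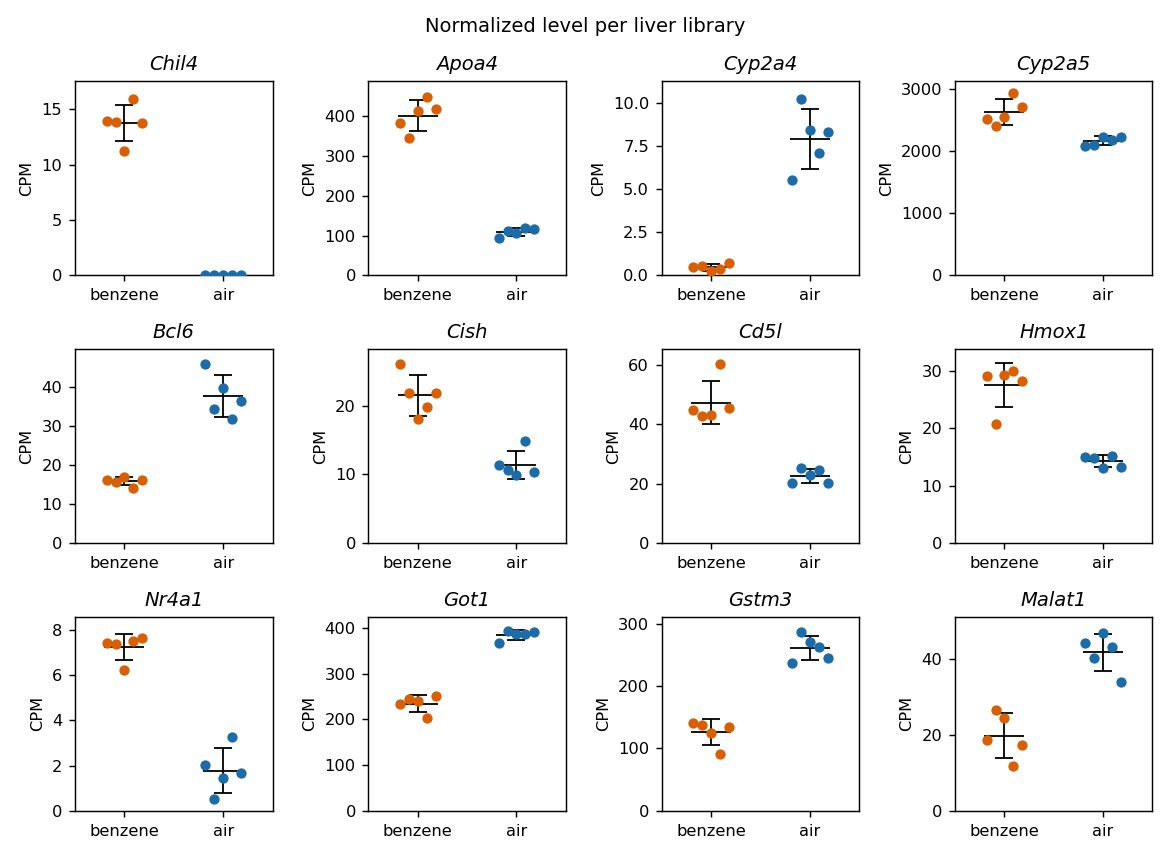
Normalized level (CPM) of 12 genes in each liver library. Each panel is 1 gene with the benzene livers on the left in orange and the air livers on the right in blue; points are libraries, and bars are the mean and SD of 5. The groups do not overlap in any of the 12 panels, and Cyp2a5 is the gene among them that was not called (adjusted p = 0.056).

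Markers of Kupffer cells held the most calls of the cell type lists, all higher in benzene livers. Of 25 Kupffer cell markers tested, 9 rose and 0 fell, where 0.819% of all genes tested were called higher. A change above 0 was found in 24, and the median was 0.50. The list also had 9 rises without benzene replicate 4 and air replicate 1, and 9 or 10 when any 1 library was left out. The summed level of the list was 892 to 1029 CPM in benzene livers against 686 to 751 CPM in air livers. Cd5l, a secreted scavenger receptor protein of tissue macrophages, had 44.6, 42.7, 43.1, 60.2 and 45.5 CPM in benzene livers, against 20.2, 25.3, 23, 24.5 and 20.2 CPM in air livers. It rose by 1.02 ± 0.11 (adjusted p = 2.95e-05), with benzene replicate 4 the highest and no overlap. Lyz2, the lysozyme of macrophages and neutrophils, had 30.3, 26, 27, 34.6 and 29.2 CPM in benzene livers, against 16, 14.7, 14.6, 10.9 and 12.3 CPM in air livers. Its change was 1.05 ± 0.12 (adjusted p = 4.99e-05), again with no overlap.

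Marco, a scavenger receptor for bacteria and particles, rose by 1.14 ± 0.15 and Vsig4, the complement receptor of Kupffer cells, by 0.77 ± 0.14. Clec4f, a lectin largely restricted to Kupffer cells in the mouse, averaged 47.8 ± 6.2 CPM in benzene livers and 29.4 ± 2.36 CPM in air livers (adjusted p = 0.00101). Slc40a1, the iron exporter ferroportin, averaged 143 ± 10.2 CPM in benzene livers and 101 ± 9.22 CPM in air livers (adjusted p = 0.00155). The complement C1q genes, which macrophages make, rose together: C1qb by 0.81 ± 0.13, C1qa by 0.77 ± 0.14 and C1qc by 0.74 ± 0.13. Not every marker moved. Timd4, a phosphatidylserine receptor of embryonically derived Kupffer cells, averaged 2.7 ± 0.798 CPM in benzene livers and 1.74 ± 0.752 CPM in air livers (adjusted p = 0.402), and the haemoglobin scavenger receptor Cd163 averaged 4.78 ± 1.15 CPM in benzene livers and 3.89 ± 0.588 CPM in air livers (adjusted p = 0.624). In bulk RNA, more cells of a type and more RNA per cell cannot be told apart.

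Of 24 general macrophage genes, 3 rose and 0 fell, with a median change of 0.40. They were Ctss, a lysosomal protease that trims the invariant chain (0.75 ± 0.13), Ptprc, the CD45 phosphatase of all leukocytes (0.83 ± 0.19), and Cfp, the complement stabiliser properdin (0.71 ± 0.16). Ctss was called under each alternative; Ptprc missed the threshold under 12 of 20 (adjusted p up to 0.12, without air replicate 2) and Cfp under 8 of 21 (adjusted p up to 0.115, without air replicate 5). The count was 1 to 5 when single libraries were left out, and 8 higher and 1 lower without both libraries that stood apart. The summed level of these 24 genes overlapped, at 1657 to 1803 CPM in benzene livers and 1609 to 1837 CPM in air livers.

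Transcripts of the class II pathway, whose products show peptides to T cells, were called in the same direction. Of 8 tested genes of the MHC class II pathway, 5 rose and 0 fell, also with any 1 library or both of the libraries that stood apart left out; Ctss is counted in both lists. Cd74, the invariant chain, had 60.6, 50.2, 57.3, 68.1 and 67 CPM in benzene livers, against 26, 38, 38.7, 37.6 and 29.7 CPM in air livers. Its change was 0.82 ± 0.12 (adjusted p = 0.000829), and no air liver reached a benzene liver. The class II chains H2-Eb1 (0.75 ± 0.11), H2-Aa (0.74 ± 0.12) and H2-Ab1 (0.73 ± 0.11) rose by nearly equal amounts. The summed level of the 8 genes was 155 to 202 CPM in benzene livers against 94.9 to 117 CPM in air livers. Class I genes showed no such calls: of 19 tested, 0 passed by limma or edgeR. At an unadjusted p under 0.05, 5 of the 19 were higher, where 739 of all 11968 genes tested were. A change above 0 was found in 17 of them, and the median was 0.10. Their summed level overlapped, at 7163.7 to 8672.4 CPM in benzene livers and 7028.5 to 8258 CPM in air livers. Of 32 interferon-stimulated genes, 1 rose, the GTPase gene Irgm2 (0.55 ± 0.12), which missed the threshold under 8 of 21 (adjusted p up to 0.0979, without air replicate 5).

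Markers of other cells were mostly not called. Of 26 sinusoidal endothelial genes, 0 were called by limma or edgeR (1 higher by DESeq2). At an unadjusted p under 0.05, 4 were higher, where 739 of all 11968 genes tested were, and the median change was 0.05. The summed level was 317 to 346 CPM in benzene livers against 284 to 320 CPM in air livers. Of 23 stellate cell and fibroblast genes, 0 were called by limma or edgeR (1 higher by DESeq2), with 4 higher at an unadjusted p under 0.05 and a median of 0.10. Their summed level did not overlap, at 336 to 358 CPM in benzene livers against 313 to 331 CPM in air livers. Of 10 cholangiocyte genes, 0 were called by either tool and 2 were higher at that p, with a median of 0.25. Of 7 erythroid genes, 0 were called by limma and 1 by edgeR, with a median of 0.39, and their summed level was 308 to 484 CPM in benzene livers, highest in replicate 4, against 242 to 313 CPM in air livers. Without benzene replicate 4 the erythroid median was 0.23.

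Infiltrating cells left few testable genes. Of 20 markers of monocytes and of macrophages derived from them, 7 were tested, and 0 were called by limma or edgeR. Of these 7, 3 were higher at an unadjusted p under 0.05, where 739 of all 11968 genes tested were. Of 18 neutrophil genes 2 were tested, of 22 T and natural killer cell genes 1, and of 15 dendritic cell genes 3, with 0 called by either tool and 1 higher and 1 lower, 0, and 0 at that unadjusted p. Of 6 tested B and plasma cell genes 1 fell, Sdc1, a heparan sulfate proteoglycan that hepatocytes express as well (-0.34 ± 0.07). Of 27 hepatocyte genes, 1 rose, the tryptophan dioxygenase gene Tdo2, and 0 fell; the median was -0.04. edgeR called 1 of them lower and DESeq2 2, and without the libraries that stood apart 7 of the 27 fell. The summed level of the hepatocyte list was 126880 to 140620 CPM in benzene livers against 143420 to 157170 CPM in air livers, without overlap. Its largest member Alb averaged 59438 ± 4528 CPM in benzene livers and 74088 ± 1705 CPM in air livers, with each benzene liver below each air liver; it was not called (adjusted p = 0.124) but passed under 6 of 21 alternatives. The part of cell composition in the changes of single genes was not tested.

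**Figure D4:**
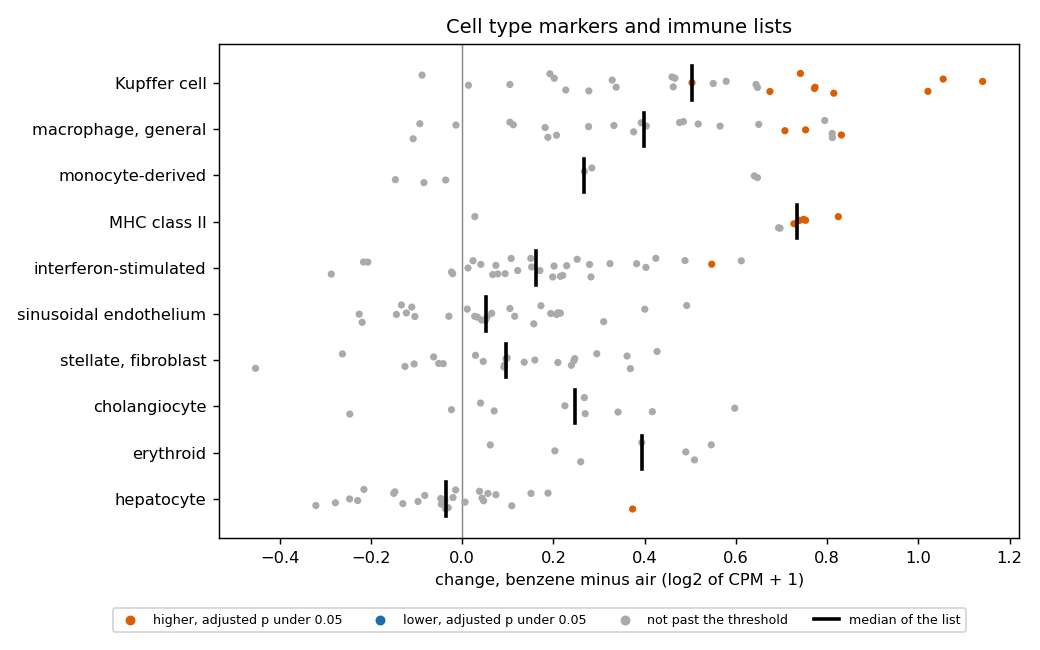
Changes (benzene minus air, log2 of CPM + 1) of the tested members of 10 lists of cell type markers and immune genes, 1 point per gene. Orange points are called higher, grey points are not called, no member shown was called lower, and the black bar is the median of the list. The Kupffer cell list has its median at 0.50 and the class II list at 0.73, against 0.05 for sinusoidal endothelium and -0.04 for hepatocytes.

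Complement and acute phase proteins, which hepatocytes secrete, changed in part. Of 29 complement genes, 5 rose and 0 fell: the 3 C1q genes and Cfp named above, and C9, the pore-forming subunit of the membrane attack complex, at 506 ± 18.7 CPM in benzene livers and 382 ± 4.53 CPM in air livers (adjusted p = 0.000867). Without the libraries that stood apart 11 rose. Of 33 acute phase genes, 4 rose and 1 fell. The rises were those of the serum amyloid genes Saa1 (0.75 ± 0.13) and Saa2 (0.66 ± 0.16), Orm2, an acid glycoprotein (0.79 ± 0.10), and the serine protease inhibitor gene Serpina3k (0.33 ± 0.07). Saa1 had 159, 119, 119.8, 211 and 141 CPM in benzene livers, against 70.1, 95.8, 85.2, 97.8 and 85.7 CPM in air livers, with benzene replicate 4 the highest and no overlap. Saa2 missed the threshold under 10 of 21 (adjusted p up to 0.132, without air replicate 3) and Serpina3k under 8 of 21 (adjusted p up to 0.116, without benzene replicate 5). Of 17 chemokine and cytokine genes tested, 0 were called by limma or edgeR (1 higher by DESeq2). At an unadjusted p under 0.05, 4 were higher and 1 lower.

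Iron and haem genes held 3 rises and 1 fall among 31 tested, and 6 rises and 2 falls without the libraries that stood apart. Hmox1, the haem oxygenase that releases iron from haem and an NRF2 target, had 29.2, 20.7, 29.3, 30.0 and 28.3 CPM in benzene livers, against 15, 14.8, 13.2, 15.2 and 13.3 CPM in air livers. It rose by 0.89 ± 0.11 (adjusted p = 0.000238); benzene replicate 2 was lowest of its group and still above each air liver. Slc40a1 rose as given above, and Smad7, an inhibitor of BMP signalling, rose by 0.53 ± 0.13 but missed the threshold under 10 of 21 (adjusted p up to 0.126, without air replicate 4). Hamp2, a paralog of the hepcidin gene, had 17.7, 14.1, 13.8, 28.9 and 23.5 CPM in benzene livers, against 29.8, 34.4, 35.9, 39.8 and 39 CPM in air livers. It fell by 0.88 on the log2 scale (adjusted p = 0.00725), with no overlap, while Hamp, the hepcidin gene itself, changed by -0.05 (adjusted p = 0.89).

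Genes listed here as sex-biased in mouse liver were called in opposite directions, 9 male-biased ones higher and 5 female-biased ones lower in these male mice. Such genes read the pattern of growth hormone release, which is pulsed in males and nearly steady in females, through STAT5B. Over all genes tested, 0.819% were called higher and 0.735% lower. Of 32 male-biased genes tested, 9 rose and 0 fell, with a median change of 0.29. Among the 9 are the Mup genes Mup7, Mup14, Mup15, Mup20 and Mup21, and Serpina3k is counted in the acute phase list too. Bcl6, which fell, and Cish, which rose, are given below and were placed in neither sex-bias list. The count of rises was 6 to 12 when single libraries were left out and 14 without the libraries that stood apart. Of 19 female-biased genes tested, 5 fell and 0 rose, with a median of -0.20. Here the count was 5 or 6 in those fits. It was 4 with 1 CPM asked in all 10 libraries, which leaves out Cyp2a4, a gene that passed the filter only through the air livers.

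Selenbp2, a selenium-binding protein gene, had the largest change of the male-biased genes. It had 850.0, 732, 816, 1029.5 and 884 CPM in benzene livers, against 439.8, 516, 504, 537 and 483 CPM in air livers, a change of 0.79 ± 0.08 (adjusted p = 3.44e-05) with no overlap. Mup20, the male pheromone darcin, had 3762, 3238, 3716, 5269.7 and 4139 CPM in benzene livers, against 2379.7, 2602, 2614, 2666 and 2640.4 CPM in air livers. Its change was 0.62 ± 0.10 (adjusted p = 0.00244); the groups were apart, with benzene replicate 4 the highest. Other Mup genes called were Mup14 (0.70 ± 0.09), Mup21 (0.57 ± 0.11), Mup15 (0.49 ± 0.10) and Mup7 (0.39 ± 0.07). All Mup genes together took 1.40% to 1.94% of the reads of benzene livers against 1.14% to 1.20% of those of air livers. Mup genes are near copies: 90.7% of the 150-base windows of Mup15, 79.0% of Mup14, 72.9% of Mup7 and 31.1% of Mup20 occur in another Mup gene, so their separate values are uncertain. Cyp7b1, an oxysterol hydroxylase, averaged 387 ± 31.1 CPM in benzene livers and 287 ± 11.2 CPM in air livers (adjusted p = 0.00224), and the steroid reductase gene Hsd3b5 rose by 0.32 ± 0.07. Hsd3b5 missed the threshold under 8 of 21 (adjusted p up to 0.108, without air replicate 3) and Mup15 under 5 of 21 (adjusted p up to 0.0787, without benzene replicate 1).

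Cyp2a4, a steroid hydroxylase that is higher in female livers, made the largest fall of all genes tested. It had 0.489, 0.543, 0.234, 0.346 and 0.723 CPM in benzene livers, against 5.52, 10.3, 8.43, 7.09 and 8.36 CPM in air livers. The change was -2.59 ± 0.18 (adjusted p = 2.07e-07), and the highest benzene liver was far below the lowest air liver. Its close relative Cyp2a5, the coumarin hydroxylase, had 2517, 2404, 2545, 2929.8 and 2709.8 CPM in benzene livers, against 2084, 2094, 2229.7, 2172 and 2226 CPM in air livers, and its change of 0.28 ± 0.07 was not called (adjusted p = 0.056) but passed under 8 of 21 alternatives. The promoters of this pair are shown because the genes differed in direction while the sequences are 98.2% identical, with 5 differing bases in 279 aligned. They lie at chr7:26306942-26307221 and chr7:26835089-26835368, both on the plus strand of GRCm38.p6, from RefSeq. Capitals mark bases that differ between the 2 sequences or that have no partner at an end.
Cyp2a4: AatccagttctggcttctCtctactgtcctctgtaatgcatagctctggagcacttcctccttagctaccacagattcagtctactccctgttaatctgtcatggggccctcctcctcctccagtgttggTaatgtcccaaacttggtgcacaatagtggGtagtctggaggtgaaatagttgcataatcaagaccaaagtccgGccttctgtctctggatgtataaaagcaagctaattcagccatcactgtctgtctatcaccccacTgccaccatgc
Cyp2a5: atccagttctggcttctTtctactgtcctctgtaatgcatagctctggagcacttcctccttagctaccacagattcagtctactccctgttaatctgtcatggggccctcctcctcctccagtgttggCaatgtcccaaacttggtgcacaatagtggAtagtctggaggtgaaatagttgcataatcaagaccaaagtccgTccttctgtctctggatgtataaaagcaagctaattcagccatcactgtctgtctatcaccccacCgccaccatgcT
Of the 150-base windows of Cyp2a4, 4.22% occur in Cyp2a5, so part of its few reads could come from either gene.

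Other female-biased genes that fell were Cyp17a1, the steroid 17-alpha-hydroxylase (2.61 ± 0.722 CPM in benzene livers against 6.39 ± 1.37 CPM in air livers, adjusted p = 0.00371), Prlr, the prolactin receptor, and the fatty acid hydroxylases Cyp4a14 and Cyp4a10. Prlr had 40.5, 42.8, 43.4, 36 and 35 CPM in benzene livers, against 66.2, 65, 58.9, 67.4 and 65.9 CPM in air livers. It fell by 0.70 on the log2 scale (adjusted p = 0.000149), and the groups stayed apart. Cyp4a14 averaged 259 ± 25.9 CPM in benzene livers and 418 ± 23.7 CPM in air livers, a change of -0.69 ± 0.08, and Cyp4a10 changed by -0.62 ± 0.11. The cytochrome Cyp4a31, not in that list, fell by 0.89 and missed the threshold under 2 of 21 (adjusted p up to 0.054, without air replicate 5).

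Components of growth hormone signalling changed in both directions. Of 22 tested, 1 rose and 4 fell. Cish, an inhibitor of cytokine receptors that STAT5 induces, had 26.1, 21.9, 18, 19.9 and 21.8 CPM in benzene livers, against 11.4, 10.6, 9.87, 14.8 and 10.3 CPM in air livers. It rose by 0.87 ± 0.13 (adjusted p = 0.000991), with no overlap. Bcl6, a transcriptional repressor that binds many STAT5 sites in male liver, had 16.1, 15.5, 17, 14.2 and 16.2 CPM in benzene livers, against 45.8, 34.3, 39.6, 31.8 and 36.3 CPM in air livers. Its change was -1.19 ± 0.11 (adjusted p = 4.18e-06), and the benzene livers lay in a narrow band below all air livers. Igfbp1, an insulin-repressed binding protein of IGF1, averaged 39.8 ± 1.53 CPM in benzene livers and 54.7 ± 3.1 CPM in air livers (adjusted p = 0.00371). Igf1, the circulating growth factor, averaged 385 ± 15.5 CPM in benzene livers and 457 ± 12.9 CPM in air livers (adjusted p = 0.0439), and missed the threshold under 11 of 21 (adjusted p up to 0.132, without air replicate 5).

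The transducer Stat5b averaged 38.4 ± 3.71 CPM in benzene livers and 36.1 ± 1.94 CPM in air livers (adjusted p = 0.763), and Socs2, a feedback inhibitor, averaged 9.99 ± 1.56 CPM in benzene livers and 12.3 ± 1.73 CPM in air livers (adjusted p = 0.414). Windows at the RefSeq starts of Cish and Bcl6 are shown because the genes moved in opposite directions and both windows hold the STAT-type motif, in capitals. They are at chr9:107296409-107296688 on the plus strand and at chr16:23988823-23989102 on the minus strand of GRCm38.p6, from RefSeq.
Cish: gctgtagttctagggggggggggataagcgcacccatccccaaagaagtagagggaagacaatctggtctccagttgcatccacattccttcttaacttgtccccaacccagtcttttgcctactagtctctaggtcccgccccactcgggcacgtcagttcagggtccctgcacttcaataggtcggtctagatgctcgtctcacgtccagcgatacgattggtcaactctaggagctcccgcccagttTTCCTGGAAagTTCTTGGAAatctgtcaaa
Bcl6: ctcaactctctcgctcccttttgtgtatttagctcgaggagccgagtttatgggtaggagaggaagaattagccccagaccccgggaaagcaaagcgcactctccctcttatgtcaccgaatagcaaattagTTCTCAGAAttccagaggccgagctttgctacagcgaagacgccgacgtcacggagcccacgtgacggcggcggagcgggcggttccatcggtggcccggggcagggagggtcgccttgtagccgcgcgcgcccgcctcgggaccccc
Cish has 2 matches, which do not overlap and begin at the RefSeq start and shortly after it, and Bcl6 has 1, before its start. GENCODE M21 starts Cish farther upstream, at 107296026, so the whole Cish window lies inside that gene. A match is a description of the sequence and not of binding. The antisense gene Gm17041 at Cish rose by 1.13 ± 0.17. Of its windows 56.4% are antisense to Cish, and of those of Cish 4.09% are antisense to it. Reads in the part where the 2 overlap cannot be told apart.

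Among genes of amino acid breakdown and the urea cycle more fell than rose in benzene livers. Of 47 tested, 7 fell and 1 rose, where 0.735% of all genes tested were called lower and 0.819% higher. A change above 0 was found in 12, and the median was -0.14. The count of falls was 4 to 11 when single libraries were left out, 18 without both libraries that stood apart and 4 under total-read scaling. Got1, the cytosolic aspartate aminotransferase, had 233, 245, 240.1, 202 and 251 CPM in benzene livers, against 367, 393, 386, 385 and 390.1 CPM in air livers. It fell by 0.72 on the log2 scale (adjusted p = 1.17e-05), with no overlap. Ass1, which joins citrulline and aspartate in the urea cycle, had 4449, 4273, 4315, 3369.9 and 4158 CPM in benzene livers, against 5443, 6199.5, 5946, 5901 and 5836 CPM in air livers. It changed by -0.52 ± 0.08 (adjusted p = 0.00184), benzene replicate 4 being the lowest, and 29.4% of its windows also occur in the gene Gm5424.

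Sds, the serine dehydratase that feeds pyruvate, fell by 0.55 (adjusted p = 0.00149) and Oat, ornithine aminotransferase, by 0.33 (adjusted p = 0.00536). The transsulfuration genes Cbs (-0.26 ± 0.06) and Cth (-0.28 ± 0.07) and the arginine transporter gene Slc7a2 (-0.28 ± 0.06) also fell. These 3 were less firm: Cbs missed the threshold under 10 of 21 (adjusted p up to 0.129, without air replicate 3), Cth under 11 of 21 (adjusted p up to 0.14, without benzene replicate 5) and Slc7a2 under 9 of 21 (adjusted p up to 0.128, without air replicate 3). The rise was that of Tdo2, the first enzyme of tryptophan breakdown, at 1734 ± 72.4 CPM in benzene livers and 1340.4 ± 98.6 CPM in air livers (adjusted p = 0.0055).

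The lobule is zoned, with ammonia disposal and gluconeogenesis near the portal vein and drug oxidation near the central vein. Of 25 periportal genes, 5 fell and 1 rose, with a median of -0.14. Of 24 pericentral genes, 1 fell and 1 rose, with a median of -0.02. Over all genes tested, 0.735% were called lower and 0.819% higher. The count of periportal falls was 3 to 8 when single libraries were left out, and without both libraries that stood apart 11 fell and 3 rose; the periportal median was -0.09 without benzene replicate 4. Whether the zones differ was not tested. Besides Sds and Ass1, the periportal genes that fell were Aldh1b1, a mitochondrial aldehyde dehydrogenase (-0.47 ± 0.07), Hsd17b6, a steroid dehydrogenase (-0.28 ± 0.07), and Pck1. Hsd17b6 missed the threshold under 10 of 21 (adjusted p up to 0.134, without air replicate 2).

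Of 31 genes of gluconeogenesis and glycolysis, 1 rose and 2 fell, and 5 rose and 5 fell without the libraries that stood apart. Pck1, the cytosolic carboxykinase that commits carbon to glucose, had 2491, 2599, 2476, 1839 and 2419.5 CPM in benzene livers, against 3169.6, 3185, 3095, 3109.7 and 3074 CPM in air livers. Its change was -0.41 ± 0.09 (adjusted p = 0.0177), benzene replicate 4 was the lowest, and it missed the threshold under 4 of 21 (adjusted p up to 0.0644, without air replicate 2). G6pc, the phosphatase that releases free glucose, had 297, 328, 327, 269 and 310.0 CPM in benzene livers, against 229, 211, 221, 219 and 225 CPM in air livers. It rose by 0.47 ± 0.07 (adjusted p = 0.000929), and the groups did not overlap. Mlxipl, the carbohydrate-sensing transcription factor ChREBP, fell by 0.48 (adjusted p = 0.00837). Irs2, an insulin receptor substrate, averaged 17.2 ± 3.12 CPM in benzene livers and 24.1 ± 2.45 CPM in air livers. It was not called (adjusted p = 0.0662), although each benzene liver lay below each air liver, and it passed under 3 of 21 alternatives.

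Lipid genes changed at single members. Of 39 genes of fatty acid synthesis, 1 rose, malic enzyme Me1 (0.30 ± 0.07, missed under 7 of 21 (adjusted p up to 0.105, without air replicate 2)), and 1 fell, Mlxipl. Fasn, the fatty acid synthase, averaged 213 ± 29.4 CPM in benzene livers and 269 ± 4 CPM in air livers. It was not called (adjusted p = 0.0557) but passed under 6 of 21 alternatives. Of 43 genes of PPAR alpha and fatty acid oxidation, 2 rose and 3 fell; the falls were the 3 Cyp4a genes given above, and the rises Creb3l3 and Acaa1b, a peroxisomal thiolase (0.29 ± 0.07). Acaa1b missed the threshold under 9 of 21 (adjusted p up to 0.131, without benzene replicate 1). Cpt1a, the gate of mitochondrial oxidation, averaged 218 ± 37.2 CPM in benzene livers and 230.2 ± 21.3 CPM in air livers (adjusted p = 0.794). Of 27 cholesterol synthesis genes, 0 were called by limma or edgeR and 1 by DESeq2. A change below 0 was found in 22, and the median was -0.16. At an unadjusted p under 0.05, 11 were lower, where 828 of all 11968 genes tested were.

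Bile acid genes held 4 rises and 2 falls among 29, with 2 to 6 rises when single libraries were left out and 8 without the libraries that stood apart. Cyp7b1 rose as above, Slco1b2, a basolateral uptake carrier, averaged 1002 ± 74.2 CPM in benzene livers and 735 ± 67.4 CPM in air livers (adjusted p = 0.00324), and the hydroxylases Cyp27a1 (0.29 ± 0.06) and Cyp2c70 (0.37 ± 0.09) rose as well. Cyp27a1 missed the threshold under 5 of 21 (adjusted p up to 0.0644, without air replicate 2) and Cyp2c70, which makes muricholic acids, under 6 of 21 (adjusted p up to 0.121, without air replicate 2). Slco1a4, another uptake carrier, fell by 0.65 (adjusted p = 0.000907), and Nr0b2, the repressor SHP, by 0.44 (adjusted p = 0.0441); Nr0b2 missed the threshold under 9 of 21 (adjusted p up to 0.142, without air replicate 5). Cyp7a1, the rate-limiting enzyme of bile acid synthesis, had 64, 71, 72.7, 52.5 and 51.6 CPM in benzene livers, against 114, 68.2, 71.3, 65.2 and 65.4 CPM in air livers and was not called (adjusted p = 0.423); air replicate 1 was far above the rest.

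Of 35 genes of benzene metabolism tested, 2 rose and 2 fell with all 10 libraries, and the median was 0.04. Over all genes tested, 0.819% were called higher and 0.735% lower. At an unadjusted p under 0.05, 7 were higher and 8 lower, where 739 and 828 of all 11968 genes tested were. Without overlap, 4 lay above air and 6 below, against 2.07% and 2.18% of all genes tested. There were 0 to 3 rises and 1 to 3 falls when single libraries were left out, and 7 rises and 6 falls without both libraries that stood apart. Cyp2e1, the main benzene oxidase, had 8057, 8194, 8158, 6958 and 8119.5 CPM in benzene livers, against 7923, 8097, 8196, 8198 and 8361 CPM in air livers. Its change was -0.05 ± 0.07 (adjusted p = 0.844), and the groups overlapped. Cyp2f2 averaged 1378 ± 193 CPM in benzene livers and 1278 ± 29.5 CPM in air livers (adjusted p = 0.713), the epoxide hydrolase Ephx1 594 ± 39.8 CPM in benzene livers and 566 ± 24.4 CPM in air livers (adjusted p = 0.727), and the quinone reductase Nqo1 7.22 ± 0.98 CPM in benzene livers and 6.31 ± 0.703 CPM in air livers (adjusted p = 0.66). Gstt1 averaged 222 ± 28.9 CPM in benzene livers and 268 ± 17.3 CPM in air livers (adjusted p = 0.163) and Cyp1a2 996 ± 147 CPM in benzene livers and 1162 ± 38.5 CPM in air livers (adjusted p = 0.269); in both each benzene liver lay below each air liver.

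The 2 rises were Gstp2, a pi-class glutathione transferase (0.47 ± 0.11), and Akr1c14, an aldo-keto reductase (0.44 ± 0.10). Of the windows of Gstp2, 49.4% are shared with another gene. The falls were Cyp2b10, a cytochrome induced by the receptor CAR, and Sult1a1, the phenol sulfotransferase (-0.30 ± 0.07). Cyp2b10 had 14.7, 14.9, 17.4, 18.3 and 16.9 CPM in benzene livers, against 23.9, 28.5, 27, 27.6 and 28.3 CPM in air livers, a change of -0.69 ± 0.10 (adjusted p = 0.000867), and no benzene liver reached an air liver. It was the member of these 4 that was called under each alternative: Gstp2 missed the threshold under 9 of 21 (adjusted p up to 0.117, without air replicate 4), Akr1c14 under 7 of 21 (adjusted p up to 0.105, without air replicate 2) and Sult1a1 under 9 of 21 (adjusted p up to 0.147, without air replicate 5).

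Of 32 glutathione genes, which serve conjugation, 3 fell and 1 rose, and the falls were 3 mu-class transferase genes; 8 fell and 3 rose without the libraries that stood apart. Gstm3 had 141, 138, 125, 91.1 and 134 CPM in benzene livers, against 237, 286, 270.1, 263 and 245 CPM in air livers. It changed by -1.06 ± 0.10 (adjusted p = 1.24e-05); benzene replicate 4 was the lowest, and the groups did not overlap. Gstm2 changed by -0.65 ± 0.08 (adjusted p = 0.000165) and Gstm6 by -0.34 ± 0.08 (adjusted p = 0.0398, missed under 8 of 21 (adjusted p up to 0.125, without air replicate 3)), while Gstm1 changed by -0.16 (adjusted p = 0.463). Of 29 targets of the receptors CAR, PXR and AhR, 4 fell and 0 rose: Cyp2b10, Gstm3, Slco1a4 and Papss2, which makes the sulfate donor (-0.39 ± 0.09, missed under 7 of 21 (adjusted p up to 0.0913, without air replicate 3)). The falls were 8 without the libraries that stood apart.

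Of 23 UGT and SULT genes, 4 rose and 2 fell, the falls being Sult1a1 and Papss2. When single libraries were left out, 2 to 7 rose and 0 to 2 fell, and without both libraries that stood apart 10 rose and 2 fell. The glucuronosyltransferases Ugt2b35 (0.53 ± 0.09), Ugt2b36 (0.42 ± 0.08) and Ugt2b5 (0.42 ± 0.08) rose, and so did Ugdh, which makes their sugar donor (0.33 ± 0.08). Ugt2b35 had 253, 290.3, 261, 301 and 256 CPM in benzene livers, against 234, 178, 171, 174 and 187 CPM in air livers; the lowest benzene liver lay above air replicate 1, the highest of its group. Ugdh missed the threshold under 8 of 21 (adjusted p up to 0.125, without air replicate 5) and Ugt2b36 under 2 of 21 (adjusted p up to 0.0535, without air replicate 2), and 19.5% of the windows of Ugt2b5 occur in Ugt2b38. Of 35 other cytochrome P450 genes, 1 rose, Cyp2c70, and 1 fell, Cyp26a1, which clears retinoic acid (-0.53 ± 0.11, missed under 3 of 21 (adjusted p up to 0.0594, without air replicate 5)); 6 rose and 3 fell without the libraries that stood apart.

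**Figure D5:**
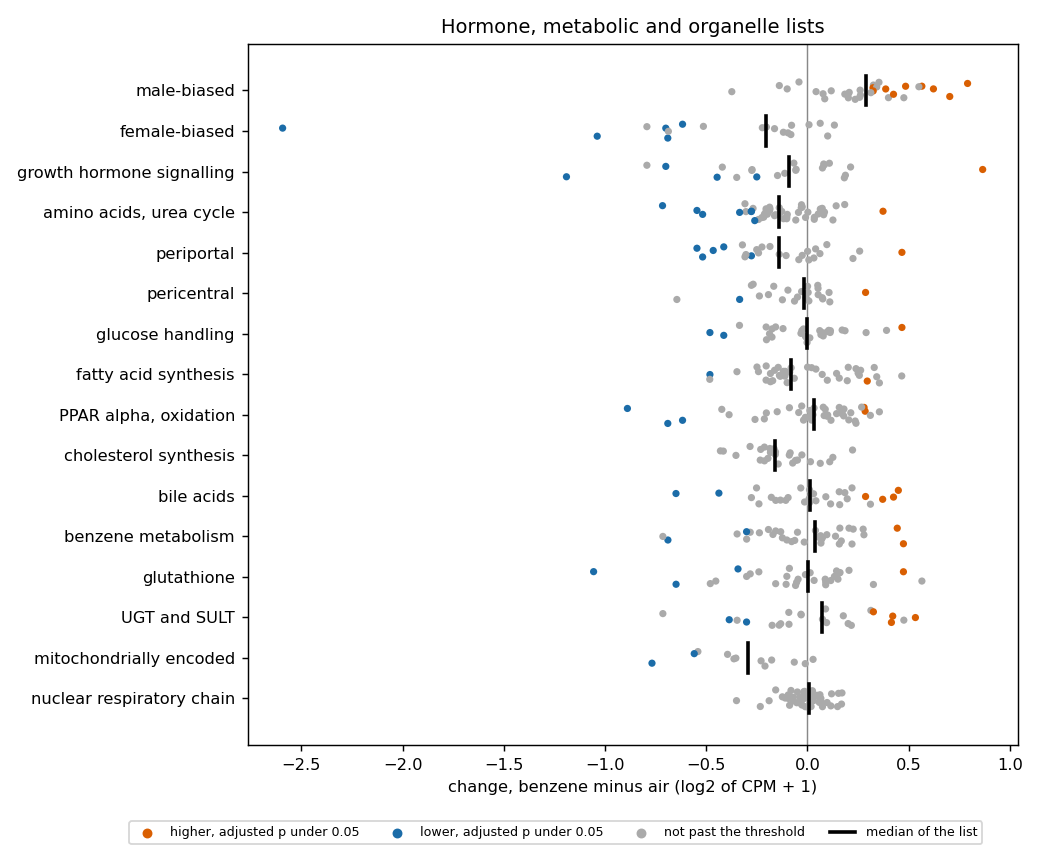
Changes (benzene minus air, log2 of CPM + 1) of the tested members of 16 lists of hormone, metabolic and organelle genes, 1 point per gene. Orange points are called higher, blue points lower and grey points are not called, and the black bar is the median of the list. The male-biased list has its median at 0.29 and the female-biased list at -0.20, and the mitochondrially encoded list at -0.29 against 0.01 for the nuclear genes of the respiratory chain.

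Stress genes were called singly. Of 36 NRF2 and oxidative stress genes, 2 rose (Hmox1 and Me1) and 1 fell (Gstm3), with a median of 0.04; the rises were 1 to 5 when single libraries were left out, and 8 rose and 4 fell without the libraries that stood apart. Of 36 p53 and DNA damage genes tested, 2 rose and 0 fell, with a median of -0.01. Gadd45g, a growth arrest and stress sensor, had 15.3 to 25.9 CPM in benzene livers against 8.15 to 10.4 CPM in air livers (means 20.7 ± 4.79 CPM in benzene livers and 9.28 ± 0.955 CPM in air livers). It rose by 1.06 ± 0.14 (adjusted p = 0.000474), with no overlap. Trp53inp1, a p53 target, rose by 0.44 ± 0.10 and missed the threshold under 7 of 21 (adjusted p up to 0.0933, without air replicate 2). The p53 targets Mdm2 (0.11, adjusted p = 0.748), Ccng1 (0.18, 0.518) and Bax (-0.07, 0.893) were not called. Of 30 endoplasmic reticulum stress genes 1 rose, Creb3l3, and 1 fell, the ubiquitin ligase gene Syvn1 (-0.45 ± 0.10, missed under 7 of 21 (adjusted p up to 0.0983, without air replicate 5)). Of 26 heat shock genes 0 were called by limma or edgeR (1 higher by DESeq2), though 0 to 3 rose when single libraries were left out. With all libraries, 4 were higher and 2 lower at an unadjusted p under 0.05.

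Immediate early and glucocorticoid-responsive genes held 4 rises and 2 falls among 34, and 8 rises and 4 falls without the libraries that stood apart. Nr4a1, an orphan nuclear receptor induced within minutes of many stimuli, had 7.42, 7.37, 6.24, 7.52 and 7.64 CPM in benzene livers, against 2.02, 0.54, 1.44, 3.26 and 1.65 CPM in air livers. Its change was 1.64 ± 0.22 (adjusted p = 0.000328), and the groups were well apart. Egr1, another immediate early factor, went the other way, with 5.3, 4.81, 5.23, 4.5 and 5.68 CPM in benzene livers, against 7.89, 8.53, 10.1, 8.56 and 9.74 CPM in air livers. It fell by 0.71 (adjusted p = 0.00592), without overlap. Myc, a growth regulator, averaged 6.28 ± 1.19 CPM in benzene livers and 2.87 ± 0.588 CPM in air livers (adjusted p = 0.00513), and Zfp36, which destabilises cytokine RNAs, averaged 92.1 ± 3.04 CPM in benzene livers and 129.8 ± 11 CPM in air livers (adjusted p = 0.00137). Of 23 clock genes, 1 fell, Nr1d1, the repressor REV-ERB alpha, at 93.1 ± 13.9 CPM in benzene livers and 140.2 ± 6.89 CPM in air livers (adjusted p = 0.0019). The hour of tissue collection is not given in the sources used here.

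Among 27 cell cycle genes 1 fell, the histone methyltransferase gene Suv39h2 (-1.04 ± 0.21), and it missed the threshold under 1 of 20 (adjusted p up to 0.054, without air replicate 5). The other genes among the 20 largest changes in each direction stood in no list. Clstn3, a calsyntenin, rose by 0.93 ± 0.13, Gng2, a G protein gamma subunit, by 0.88 ± 0.21, and Phlda1, a pleckstrin-like domain protein, by 0.80 ± 0.08 (73 ± 3.57 CPM in benzene livers against 41.6 ± 3 CPM in air livers). The noncoding gene Gm28592, of whose windows 80.2% are antisense to Phlda1, rose by 0.85 ± 0.17. Mmd2 fell by 1.23 (1.46 ± 0.576 CPM in benzene livers against 4.72 ± 1.18 CPM in air livers) and Nipal1, a magnesium transporter family gene, by 1.08. Gng2 had 1.12 to 1.63 CPM in benzene livers against 0.0815 to 0.877 CPM in air livers. It thus passed the filter only through the benzene livers. Gng2 missed the threshold under 9 of 20 (adjusted p up to 0.121, without air replicate 3) and Nipal1 under 5 of 20 (adjusted p up to 0.078, without air replicate 4).

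A few RNAs of the mitochondrial genome and members of a list of nuclear noncoding RNAs fell in benzene livers. Of 12 mitochondrially encoded genes tested, 2 fell and 0 rose, and 11 had a change below 0, with a median of -0.29. Their share of the reads was 3.16%, 3.73%, 3.59%, 2.18% and 2.97% in benzene livers, against 4.59%, 3.98%, 3.96%, 3.88% and 4.14% in air livers. Benzene replicate 4 was lowest, and the groups did not overlap. mt-Nd4, a complex I subunit, averaged 2225 ± 690.1 CPM in benzene livers and 3607 ± 189 CPM in air livers (adjusted p = 0.0398), and mt-Cytb, of complex III, 4287 ± 1009 CPM in benzene livers and 6151 ± 249.9 CPM in air livers (adjusted p = 0.0499). These calls were fragile: mt-Nd4 missed the threshold under 9 of 21 (adjusted p up to 0.188, with robust eBayes) and mt-Cytb under 12 of 21 (adjusted p up to 0.146, with robust eBayes), 0 of the 12 were called under total-read scaling, 0 to 5 when single libraries were left out, and 7 without the libraries that stood apart. Of the windows of mt-Nd4, 59.2% also occur in Gm28439. Of 52 nuclear genes of the respiratory chain, 0 were called by limma or edgeR (1 lower by DESeq2). At an unadjusted p under 0.05, 2 were higher and 1 lower, and the median was 0.01. Without the libraries that stood apart 10 of the 52 fell and 1 rose.

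Malat1, a long noncoding RNA of nuclear speckles, had 18.7, 26.8, 24.6, 11.8 and 17.5 CPM in benzene livers, against 44.4, 40.3, 47.1, 43.3 and 34.1 CPM in air livers. It fell by 1.08 (adjusted p = 0.00134), and the groups were apart. Neat1, the scaffold of paraspeckles, averaged 12.7 ± 3.69 CPM in benzene livers and 22.5 ± 4.12 CPM in air livers (adjusted p = 0.0273), and Lars2, the mitochondrial leucyl-tRNA synthetase gene kept in the same list, averaged 150.0 ± 25.3 CPM in benzene livers and 330.5 ± 119 CPM in air livers (adjusted p = 0.00447). With Snhg11 (-0.71 ± 0.15), 4 of 6 tested members of this list of nuclear noncoding RNAs fell and 0 rose, although Snhg11 and Lars2 are annotated as protein-coding genes, and the count of falls was 2 to 4 when single libraries were left out. Neat1 missed the threshold under 5 of 21 (adjusted p up to 0.0974, without air replicate 4), Snhg11 under 5 of 21 (adjusted p up to 0.0823, without air replicate 4) and Lars2 under 1 of 21 (adjusted p up to 0.0773, with robust eBayes). Gm37376, whose annotated sequence is wholly antisense to Malat1, fell by 1.34, and Gm23935, annotated as a miRNA gene, by 1.14. Gm23935 missed the threshold under 1 alternative (adjusted p = 0.0735, with robust eBayes). Leng8, which encodes a nuclear RNA export factor, fell by 0.80 (8.48 ± 2.19 CPM in benzene livers against 15.3 ± 2.65 CPM in air livers), and Mir6236 by 0.93; Leng8 missed the threshold under 1 of 21 (adjusted p up to 0.0626, without air replicate 2) and Mir6236 under 7 of 21 (adjusted p up to 0.135, without air replicate 3). These RNAs moved along with the other differences described, and the part of RNA quality or extraction in either was not tested.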

How the data were processed

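The liver table holds 1 value per gene and library, headed CPM by the authors, as normalized signal. Per the submitters' processing notes, reads were handled with fastp 0.20.0, STAR and edgeR 3.10 on the build GRCm38; the sources used here give neither the read counter nor its strand setting, nor how low genes were filtered. Each deposited signal value was a whole number of reads over 1 factor per library (100% of values, tolerance 0.01), so reads could be recovered, and the count-based tests were run on them as alternatives. Raw counts had been planned for, so the test was changed to one for normalized values. Deposited means, changes and p-values were not used.

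Genes with at least 1 CPM in at least 5 libraries were kept (11968 of 12259), values were taken as log2(CPM + 1), and benzene was set against air in limma-trend, without covariates (version 3.58.1 of limma in R 4.3.3), taking a Benjamini-Hochberg adjusted p under 0.05. A script tested the fit on simulated data. Identifiers were matched to GENCODE M21 (12255 of 12259). Promoters came from RefSeq (GRCm38.p6), where 97 of 131 named genes had an entry. Near copies were sought by 150-base windows of the longest transcript found in another gene.

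The 49 gene lists, the members and the tests were chosen with earlier results of these data known, so no list counts as independent support. Named genes were the 20 highest and 20 lowest called changes with a group mean of at least 1 CPM, leaving out predicted genes, clone names and pseudogenes, the list members that were called, and a set of genes of benzene metabolism and liver function. The overlapping, antisense or highest-ranked genes Gm10680, AC116503.1, Gm17041, Gm28592, Gm23935 and Gm37376, and uncalled list members given for contrast, were chosen after their values were seen.

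Alternatives were TMM and total-read scaling, a pseudocount of 0.1, no filter, 1 CPM in all 10 libraries, edgeR 4.0.16, DESeq2 1.42.0, robust eBayes, array weights, a replicate block, and leaving out each library. Leaving out benzene replicate 4 and air replicate 1 together was added after the data were seen. Depth was 9.46 to 12.71 M reads per library. The limit of 3 reads for a count of 0 allows for counting error alone, since reads were not collapsed by molecular identifiers. No 2 libraries of the same group were duplicates: chi-square per degree of freedom between them was 2.94 to 47.7. Pairs of a benzene and an air library were not checked in this way. The lung libraries were not used here. Python 3.11.15 with pandas 2.3.3 made the tables.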

Additional observations from a re-analysis of the deposited data

Results flagged for a closer look

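In 40 of 262 combinations of a named gene and a group, 1 library lay far from the other 4, by Dixon's ratio above 0.71. Chance flags about 1 in 20 groups. Benzene replicate 4 gave 12 of these values and air replicate 1 gave 20, the same libraries that stood apart over all genes, and the part of any technical difference was not tested.

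Benzene replicate 4 had 6958 CPM of Cyp2e1, where the other benzene livers had 8057 to 8194, and was likewise low with 1043 CPM of Cyp2f2, 737 of Cyp1a2, 524 of Ephx1, 171 of Gstt1 and 84.5 of Gstm2. It was also low for Pck1 (1839 CPM, others 2419 to 2599), Ass1 (3370 CPM, others 4158 to 4449) and the noncoding gene Gm28592 (23.5 CPM). It was high for Cd5l (60.2 CPM, others 42.7 to 45.5), Ugt2b36 (894 CPM) and Oat (797 CPM). In the other benzene livers, replicate 1 was high for Myc (8.32 CPM), replicate 2 low for Hmox1 (20.7 CPM, others 28.3 to 30), replicate 3 low for Nr4a1 (6.24 CPM) and high for Nipal1 (2.34 CPM), and replicate 5 low for Stat5b (32.0 CPM).

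Air replicate 1 had 8582 CPM of Apoa1, where the other air livers had 11280 to 11790, and was likewise low with 1707 CPM of Apoc3, 2380 of Mup20 and 324 of Mt1, a metal-binding protein gene. Further low values there were 367 CPM of Got1, 403 of Sds, 267 of Cyp7b1, 1320 of Acaa1b, 158 of Gstm6, 129.5 of Gstm2, 523 of Ephx1, 110.1 of Zfp36 and 65.4 of Gm10680. It was high for Cyp7a1 (114 CPM, others 65.2 to 71.3), Akr1c14 (348 CPM, others 226 to 250.5), Cyp4a14 (459 CPM), Cyp4a10 (244 CPM), Ugt2b35 (234 CPM), Ugt2b36 (657 CPM) and Hsd3b5 (176 CPM). Air replicate 3 was low for Prlr (58.9 CPM) and H2-Eb1 (11.8 CPM), and air replicate 5 high for Suv39h2 (3.67 CPM, others 2.02 to 2.47).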

How the results depend on the processing

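The count of called genes moved more than the direction of the changes. Array weights gave 461 calls (239 higher, 222 lower) and DESeq2 318 (157 and 161), each with the 186 genes among them. edgeR gave 197, of which 180 were shared, TMM scaling 192, robust eBayes 189, no filter 187, a pseudocount of 0.1 180 and 1 CPM in all 10 libraries 170. Leaving out 1 library gave 99 to 271 calls, 56 to 151 higher and 42 to 120 lower. The fewest were left without air replicate 4 (99), air replicate 2 (102), air replicate 3 (106), and air replicate 5 or benzene replicate 1 (111 each); without benzene replicate 5 there were 119. Leaving out benzene replicate 4 and air replicate 1 together, chosen after seeing the data, gave 751 (374 higher, 377 lower). The cause of these moves was not tested.

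Of the 186 genes, 84 were called under all 21 alternatives. None of the called genes that the text names changed direction. Uncalled genes near 0 did: Cpt1a reached 0.00051 with array weights, and Apoa1 0.0173 with total-read scaling. Over the fits that left out 1 library or both of those that stood apart, Apoa1 ran from -0.177 to 0.0656, Apoc3 from -0.294 to 0.0653, Cpt1a from -0.155 to 0.0603 and Stab2, a sinusoidal endothelial receptor, from -0.0318 to 0.134.

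Benzene and air samples share the numbers 1 to 5, but the numbers did not pair the libraries: the correlation of same-numbered deviations was 0.01, -0.13, -0.07, 0.19 and 0.07 over replicates 1 to 5, and 1 of the 5 benzene libraries correlated best with its own number. With the replicate block 146 genes were called, 71 higher and 75 lower, 135 of them shared. Calls were fewer among genes of low level, and a gene with a mean of at most 7.39 CPM had a median SE of 0.202.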
